A study of Mus musculus with 12 samples.

Results

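The genes of oxidative phosphorylation were followed in mouse dermis, the layer of connective tissue below the epidermis, before and after wounding in wild-type (WT) mice and in mice without Cthrc1, a gene for a secreted collagen triple helix repeat protein. Members were taken by symbol: every protein-coding gene whose mouse symbol starts with Nduf, Uqcr, Atp5, Sdh or with Cox followed by a digit from 4 to 8, and the mitochondrial genes starting with mt-Nd, mt-Co, mt-Cytb or mt-Atp. The rule found 111 genes among the 55401 in the table, 98 of them in the nuclear genome and 13 in the mitochondrial genome. The nuclear members comprised 36 subunits of complex I, 4 of complex II, 8 of complex III, 20 of complex IV (with Ndufa4 and Ndufa4l2), 17 of complex V and 13 assembly or other factors. All 13 mitochondrially encoded genes and 94 of the 98 nuclear genes had a mean of at least 1 FPKM (read fragments for each kilobase of a transcript, relative to the depth of its library) over the 12 samples and were tested. The 4 not tested were Cox8c and a duplicate annotation of Atp5o (ENSMUSG00000116933), both at 0 in every sample, Cox7b2 at a mean of 0.0167 FPKM and Sdhaf3 at 0.861 FPKM.

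Oxidative phosphorylation is the process by which mitochondria make most of a resting cell's ATP. Complexes I and II pass electrons from NADH and succinate to ubiquinone, complex III passes them on to cytochrome c, complex IV reduces oxygen, and complex V, the ATP synthase, uses the proton gradient that complexes I, III and IV build. Complex II is encoded in the nucleus alone, whereas the other complexes combine nuclear subunits with a few core subunits that are transcribed from mitochondrial DNA inside the organelle, so that their assembly needs transcripts from both genomes.

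The animals were C57BL/6 mice aged 6 weeks, and the labels describe paired wounds of equivalent size. The 4 groups were WT dermis on day 0, Cthrc1-/- dermis on day 0, WT dermis on day 7 and Cthrc1-/- dermis on day 7, with 3 biological replicates in each. The labels name no other allele or agent, and do not say how the Cthrc1 deletion was made, whether animals were pooled, which tissue around the wound was taken, or whether day 0 and day 7 samples came from the same animals. The p-values therefore measure the spread between these samples. Polyadenylated RNA was sequenced, so a mitochondrial transcript was measured as far as it carried a poly(A) tail.

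Total counts ranged from 48329668 to 76938132 per sample. Cthrc1 was at 0 to 0.151 FPKM in the 6 Cthrc1-/- samples and at 21.1 to 106 FPKM in the 6 WT samples, as the labels say. Fibroblast markers were detected in every sample, 8 of 8, at a summed 370 to 6536 FPKM, and keratinocyte markers, 8 of 8, at 2313 to 9662 FPKM, so the libraries held epidermal RNA too. Samples differed most in hair follicle markers (11 genes matched), which summed to 7.06 to 11.1 FPKM in day 0 WT, 230 to 12395 in day 0 Cthrc1-/-, 1650 to 3938 in day 7 WT and 491 to 5365 in day 7 Cthrc1-/-. Cthrc1-/- day 0 replicate 3 stood apart, with the highest hair follicle sum and the lowest fibroblast sum of the 12 libraries. In bulk tissue, fewer cells of a type and less RNA per cell cannot be told apart.

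The mitochondrial members share their sequence with pieces of mitochondrial DNA that sit in the nuclear genome, and this bears on how their reads were counted. Transcript sequences of the GENCODE M21 annotation (mouse assembly GRCm38) were compared, and 7 of the 13 genes had a nuclear copy of at least 99% identity over 100 bases or more: mt-Co1, mt-Co2, mt-Co3, mt-Nd3, mt-Nd4, mt-Nd4l and mt-Atp6. All 7 copies lay within chr1:24611535-24616197. The first 60 bases of mt-Atp6 (chrM:7927-8607, plus strand), which encodes a membrane subunit of the ATP synthase, are shown with those of its copy Gm10925 (chr1:24613974-24614651, minus strand). Bases 61 to 120 of mt-Cytb (chrM:14145-15288, plus strand), which encodes cytochrome b of complex III, are shown with those of its nearest copy Gm11410 (chr4:80003989-80005131, plus strand) as a contrast. Each is written 5′ to 3′, with differing bases in capitals.
mt-Atp6: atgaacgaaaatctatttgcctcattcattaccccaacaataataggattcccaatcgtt
Gm10925: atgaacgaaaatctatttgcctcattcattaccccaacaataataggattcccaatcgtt
mt-Cytb: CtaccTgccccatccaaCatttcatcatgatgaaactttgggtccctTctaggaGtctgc
Gm11410: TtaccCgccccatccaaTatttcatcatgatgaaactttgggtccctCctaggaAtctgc
The first pair differed at 0 bases and was identical over 678 aligned bases, so that a read from one could not be assigned by sequence. The second pair differed at 5 of the 60 bases shown and matched at 92.9% over 1142 bases. Gm11410 held 2 counts in all 12 samples against 6410829 for mt-Cytb, whereas Gm10925 held 5139340 against 3244165 for mt-Atp6. The copies of mt-Co2, mt-Co3, mt-Nd3 and mt-Nd4l held nearly the same counts as the genes themselves, with the gene at 0.997 to 1.23 times its copy in every library. Values of these 7 genes are therefore uncertain in level. The other 6, mt-Nd1, mt-Nd2, mt-Nd5, mt-Nd6, mt-Cytb and mt-Atp8, had no copy at that identity. The genes mt-Atp8 and mt-Atp6 overlap, as do mt-Nd4l and mt-Nd4 on the same strand and mt-Nd5 and mt-Nd6 on opposite strands, and whether the counting used strand is not given in the sources used here.

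Transcripts from the mitochondrial genome were far more abundant per length than those from the nuclear genome. The mean level over the 12 samples had a median of 5888 FPKM across the 13 mitochondrially encoded genes and of 45.2 FPKM across the 94 tested nuclear members. Among the mitochondrial genes the mean level ran from 841 FPKM for mt-Nd5, a core subunit of complex I, to 13892 FPKM for mt-Co1, the catalytic subunit of complex IV. Among the nuclear subunits the median level was 37.9 FPKM for complex I, 37.9 for complex II, 85.2 for complex III, 83.7 for complex IV and 84.7 for complex V, against 4.41 FPKM for the assembly and other factors. The highest nuclear subunit of each complex was Ndufa2 at 116 FPKM, Sdhd, a membrane anchor of succinate dehydrogenase, at 74.6, Uqcr10 at 160, Cox6a1 at 303 and Atp5a1, the alpha subunit of the ATP synthase, at 189.

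In WT dermis, transcripts from the mitochondrial genome fell between day 0 and day 7. Of the 13 genes, 10 were called lower and 0 higher at an edgeR adjusted p under 0.05, with a median log2 fold change of -1.08 over the 13 against a median of -0.002 over all tested genes. Of the 14313 genes tested, 7.11% were called lower and 6.04% higher. The genes called were subunits of complexes I, III and IV. The decrease was not limited to them: 12 of the 13 values were negative, that of mt-Atp8 of the ATP synthase among them. An unadjusted p under 0.05 was held by 12 of the 13, and by 4659 of all tested genes. The positive value was that of mt-Atp6, whose counts were split between libraries, as described below.

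The complex IV genes were the most abundant. The FPKM of mt-Co1 was 17712, 15873 and 19385 in day 0 WT replicates 1 to 3, and 8284, 9632 and 7862 in WT day 7 replicates 1 to 3. All 3 day 7 samples lay below all 3 day 0 samples, and mt-Co1 fell by 1.22 on the log2 scale (SE 0.24, edgeR adjusted p = 0.0123). The level of mt-Co3, another core subunit of the oxidase, was 9750, 9088 and 11249 FPKM on day 0 and 5831, 6501 and 5439 FPKM on day 7. These groups did not overlap either, with a fall of 0.94 (SE 0.17, edgeR adjusted p = 0.00931). For mt-Co2, which encodes the subunit that takes electrons from cytochrome c, the FPKM was 9300, 8863 and 10487 on day 0 and 5443, 6992 and 5894 on day 7. Its log2 fold change was -0.83 (SE 0.19, edgeR adjusted p = 0.0222), again without overlap between the days.

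Of the 7 complex I genes in mitochondrial DNA, all but mt-Nd4l were called lower. The smallest adjusted p belonged to mt-Nd3, at 2457, 2308 and 2922 FPKM on day 0 and 1188, 1460 and 1173 on day 7, a fall of 1.20 (SE 0.19, edgeR adjusted p = 0.00657). The largest fold change belonged to mt-Nd2, at 4182, 3954 and 5006 FPKM on day 0 and 1339, 2455 and 1766 on day 7. The groups did not overlap for either gene, and mt-Nd2 fell by 1.44 (SE 0.32, edgeR adjusted p = 0.0201). Among the others, mt-Nd6, the one member transcribed from the opposite strand, fell by 1.32, from a mean of 1745 to 808 FPKM. The falls of mt-Nd1, mt-Nd4 and mt-Nd5 were 1.06, 1.08 and 1.19 on the log2 scale. The complex III gene mt-Cytb went from 8519, 7668 and 9516 FPKM to 3593, 5659 and 4518 FPKM, with no overlap and a log2 fold change of -1.10 (SE 0.23, edgeR adjusted p = 0.0172). Not called were mt-Nd4l (log2 fold change -0.88, edgeR adjusted p = 0.0991) and the ATP synthase genes mt-Atp8 (-0.57, edgeR adjusted p = 0.113) and mt-Atp6 (0.86, SE 0.76, edgeR adjusted p = 0.472). The genes mt-Nd1, mt-Nd3 and mt-Co3 were called under all 22 alternatives tried. The number called dropped to 4, 5 and 3 of 13 without WT day 0 replicates 1, 2 and 3, and to 4 without WT day 7 replicate 1, while the median stayed between -1.26 and -0.90 over the 12 leave-one-out fits. Over all tested genes the calls fell in the same fits, from 864 higher and 1017 lower. They were 311 and 377, 254 and 274, and 255 and 315 without the day 0 WT replicates in turn. Without WT day 7 replicate 1 they were 717 and 478.

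**Figure D1:**
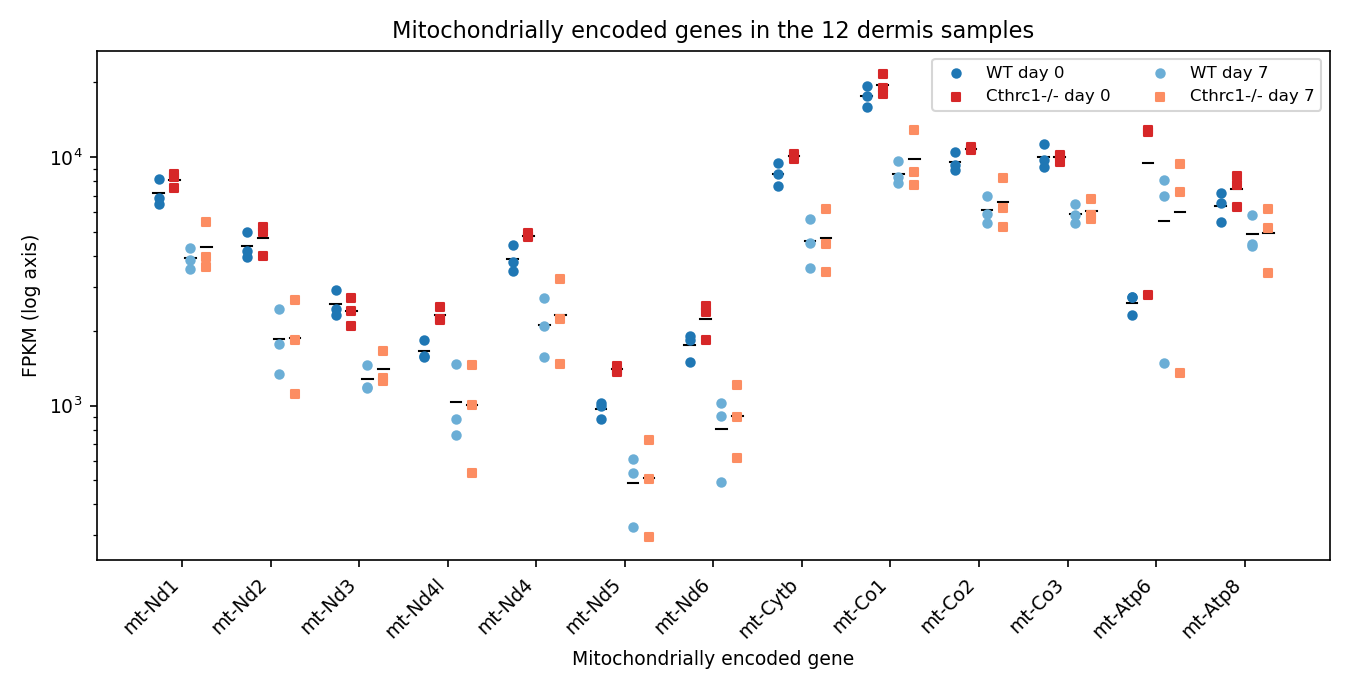
FPKM (log axis) of the 13 mitochondrially encoded genes; each point is 1 sample, colour and shape give the group, and the black line is the mean of 3 replicates. For mt-Co1 the day 7 WT samples sit between 7862 and 9632 FPKM and the day 0 WT samples between 15873 and 19385. For mt-Atp6 the samples are split into low and high libraries, with all day 0 WT samples low and both kinds in each other group.

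The Cthrc1-/- dermis showed the same direction, with calls that depended on single libraries. Of the 13 mitochondrially encoded genes 7 were called lower between day 0 and day 7 (mt-Nd1, mt-Nd3, mt-Nd5, mt-Nd6, mt-Cytb, mt-Co1 and mt-Co3) and 0 higher, with a median log2 fold change of -1.15 against -0.013 over all genes. Of all tested genes 0.601% were called lower and 0.859% higher. The level of mt-Co1 was 21639, 18990 and 17966 FPKM on day 0 and 8725, 12887 and 7749 on day 7. The days did not overlap, and mt-Co1 fell by 1.15 (SE 0.24, edgeR adjusted p = 0.0453). The largest called change was that of mt-Nd5, at 1445, 1385 and 1362 FPKM on day 0 and 508, 728 and 296 on day 7, a fall of 1.60 (SE 0.30, edgeR adjusted p = 0.0394). The falls of mt-Nd6, mt-Cytb and mt-Nd1 were 1.46, 1.25 and 1.06. Those of mt-Nd2 and mt-Nd4 (-1.51 and -1.22) missed the threshold at edgeR adjusted p = 0.0520 and 0.0639. Without any 1 of 9 libraries (the 3 of day 0 WT, Cthrc1-/- day 0 replicates 1 and 2, WT day 7 replicate 2 and the 3 of day 7 Cthrc1-/-) 0 genes were called, and without WT day 7 replicate 1 there were 11; the median lay between -1.41 and -0.97 throughout. Over all genes the calls fell in those 9 fits too, from 123 higher and 86 lower to 2 to 101 higher and 3 to 53 lower. Without WT day 7 replicate 1 they rose to 591 and 320. In the fit of the 2 Cthrc1-/- groups alone 0 of the 13 were called, whereas DESeq2 called 12 and limma 11. Over all tested genes the fit of 2 groups called 67 higher and 22 lower. DESeq2 called 749 and 660, and limma on log2(FPKM + 1) called 661 and 114.

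The summed counts gave the balance of the genomes sample by sample. The 13 mitochondrially encoded genes took 8.23, 7.53 and 9.24% of all counts in day 0 WT replicates 1 to 3 and 9.88, 10.2 and 9.63% in the day 0 Cthrc1-/- replicates. On day 7 they took 3.95, 5.65 and 4.68% in WT and 4.92, 6.82 and 3.79% in Cthrc1-/-. Every day 7 sample of either genotype lay below every day 0 sample. The 98 nuclear members together took 0.828 to 0.863% of counts in day 0 WT, 1.02 to 1.16% in day 0 Cthrc1-/-, 0.942 to 1.05% in day 7 WT and 1.01 to 1.32% in day 7 Cthrc1-/-. The lowest nuclear shares were thus those of the 3 day 0 WT samples.

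Divided within each sample, the mitochondrially encoded genes had 9.63, 9.09 and 10.7 counts per nuclear count in day 0 WT and 9.09, 9.99 and 8.27 in day 0 Cthrc1-/-. On day 7 the ratio was 4.20, 5.78 and 4.46 in WT and 4.88, 6.57 and 2.88 in Cthrc1-/-. On the log2 scale the ratio was 3.29 ± 0.12 (SD, n = 3) in day 0 WT, 3.18 ± 0.14 in day 0 Cthrc1-/-, 2.25 ± 0.24 in day 7 WT and 2.18 ± 0.60 in day 7 Cthrc1-/-. The difference between days was -1.04 in WT and -1.01 in Cthrc1-/-, larger than the pooled SD within groups of 0.34, and the 6 day 7 values lay below the 6 day 0 values. The difference between genotypes was -0.11 on day 0 and -0.08 on day 7, within that SD. No p-value is given for this ratio, since it is a score over the members. Over the 19 alternatives the day difference ran from -1.18 to -0.92 in WT and from -1.42 to -0.68 in Cthrc1-/-. These alternatives included a sum over only the 6 genes without a near-identical copy and a sum with the counts of the copies added.

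**Figure D2:**
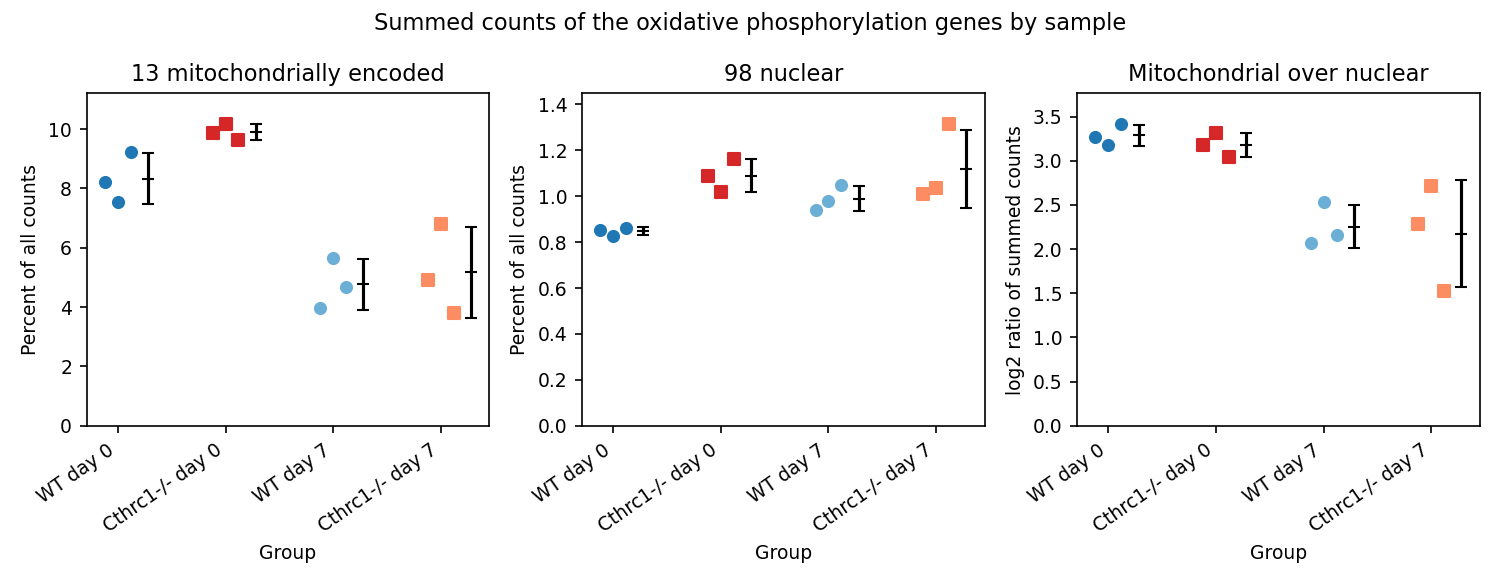
Summed counts by group: percent of all counts taken by the 13 mitochondrially encoded genes (left) and by the 98 nuclear members (middle), and the log2 ratio of the sums (right). Points are samples and bars are the mean ± SD of 3; the day 7 mitochondrial shares (3.79 to 6.82%) lie below all day 0 shares (7.53 to 10.2%), and the nuclear shares stay between 0.828 and 1.32%.

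Other cell types moved between the same days. In WT, 9 of 9 tested adipocyte markers were called lower from day 0 to day 7, with sums of 544 to 734 FPKM and then 93.5 to 188 FPKM. In the same samples 9 of 11 hair follicle markers were called higher, as were 2 of 9 macrophage and neutrophil markers, which summed to 253 to 272 FPKM on day 0 and 326 to 6137 on day 7. Sebocyte markers (4 of 8 called lower) summed to 386 to 488 FPKM on day 0 and 101 to 246 on day 7. Of 8 keratinocyte markers 1 was called lower and 7 had a negative value, with a median log2 fold change of -0.75 and sums of 7800 to 8560 and then 2313 to 9662 FPKM. In Cthrc1-/- dermis none of these lists had a member called between the days by edgeR: adipocyte sums were 138 to 411 and then 115 to 260 FPKM, and the hair follicle markers had a median log2 fold change of -0.94 while the mitochondrial median was -1.15. At an unadjusted p under 0.05 there were 3 adipocyte, 0 hair follicle, 6 macrophage and neutrophil, 5 sebocyte and 1 keratinocyte markers. Of all 14313 tested genes, 2596 in Cthrc1-/- and 4659 in WT had an unadjusted p under 0.05 between the days. Erythroid markers, with 0 of 5 called by edgeR and 0 and 5 at an unadjusted p under 0.05, summed to 1273 to 1572 and then 426 to 947 FPKM for WT, and to 153 to 1263 and then 125 to 265 FPKM for Cthrc1-/-. Endothelial markers also had 0 of 5 called by edgeR, with 0 in WT and 5 in Cthrc1-/- at an unadjusted p under 0.05. Their median log2 fold change was 0.42 in WT and 1.71 in Cthrc1-/-, where they summed to 13.2 to 38.1 and then 73.9 to 131 FPKM. For the fibroblast markers, 0 of 8 called in either genotype, the median was -0.31 in WT and 0.60 in Cthrc1-/-. Markers at 0 in some samples were Ucp1 and Lep on day 7, Krt25, Krt73 and Krt33a in WT day 0 replicate 1, and Ly6g in 9 samples. The part of these cell types in the mitochondrial fall was not tested.

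Against this fall, the nuclear members changed little between the days. In WT 2 of 94 were called, 1 higher and 1 lower, where 6.04% of all tested genes were called higher and 7.11% lower. The median log2 fold change of the nuclear members was 0.04. The gene called higher was Atp5mpl (chr12:111961375-111966977), which encodes a small membrane subunit of the ATP synthase. Its level was 40.6, 41.1 and 32.9 FPKM on day 0 and 64.1, 63.3 and 68.5 FPKM on day 7. The groups did not overlap, and Atp5mpl rose by 0.59 on the log2 scale (SE 0.15, edgeR adjusted p = 0.0299). The gene called lower was Ndufa11 (chr17:56717767-56722141), an accessory subunit in the membrane arm of complex I, named after its values were seen. It stood at 32.2, 30.3 and 37.4 FPKM on day 0 and 25.8, 27.1 and 21.5 on day 7, without overlap, a fall of 0.60 (SE 0.16, edgeR adjusted p = 0.0363). The call of Atp5mpl held under 16 of 21 alternatives and that of Ndufa11 under 5. The count was 0 without WT day 0 replicate 1, 2 or 3 or WT day 7 replicate 2, 1 without Cthrc1-/- day 0 replicate 2, WT day 7 replicate 1 or Cthrc1-/- day 7 replicates 1 or 2, and 6 without Cthrc1-/- day 0 replicate 3. Over all genes the calls fell as well without WT day 0 replicates 1, 2 and 3. They were then 311 higher and 377 lower, 254 and 274, and 255 and 315. Without WT day 7 replicate 2 they were 495 and 452, and without Cthrc1-/- day 0 replicate 3 they rose to 1370 and 1635. Scaled to total counts, 6 nuclear members were called higher and 0 lower; under that scaling the median of all genes moved from -0.002 to 0.19 and the split of all calls from 864 higher and 1017 lower to 1662 and 545. Relative to the median of all genes, the nuclear median was 0.05 under either scaling.

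By complex, the WT medians between the days were -0.02 for complex I (36 genes), 0.01 for complex II (4), -0.05 for complex III (8), 0.06 for complex IV (18) and 0.10 for complex V (16). The most abundant subunit of each complex was not called. Cox6a1, a ubiquitous isoform of subunit 6a, had a log2 fold change of 0.25 (SE 0.14) and Atp5a1 one of 0.02 (SE 0.11). For Uqcr10, a small subunit of complex III, it was 0.26 (SE 0.15), for Sdhd 0.15 (SE 0.17) and for Ndufa2, an accessory subunit of complex I, -0.27 (SE 0.19).

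In Cthrc1-/- dermis 0 of 94 nuclear members were called between the days by edgeR or limma, with 11 at an unadjusted p under 0.05 and 6 called lower by DESeq2. Of all 14313 tested genes, edgeR called 0.859% higher and 0.601% lower, and 2596 had an unadjusted p under 0.05. DESeq2 called 749 of all genes higher and 660 lower. The median log2 fold change of the nuclear members was -0.11, and 0.06 when counts were scaled to the total. That scaling moved the median of all genes to 0.15 and the split of all edgeR calls from 123 higher and 86 lower to 634 and 99. Relative to all genes it was -0.10 under both. All 8 complex III members had a negative value, from -0.38 to -0.10, as did 33 of the 36 complex I members. The smallest adjusted p was that of Uqcrfs1, the Rieske iron-sulfur subunit of complex III: 81.1, 79.4 and 86.4 FPKM on day 0 and 67.0, 68.9 and 74.9 on day 7. Its samples did not overlap between the days, at a log2 fold change of -0.38 (SE 0.09, edgeR adjusted p = 0.0729).

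**Figure D3:**
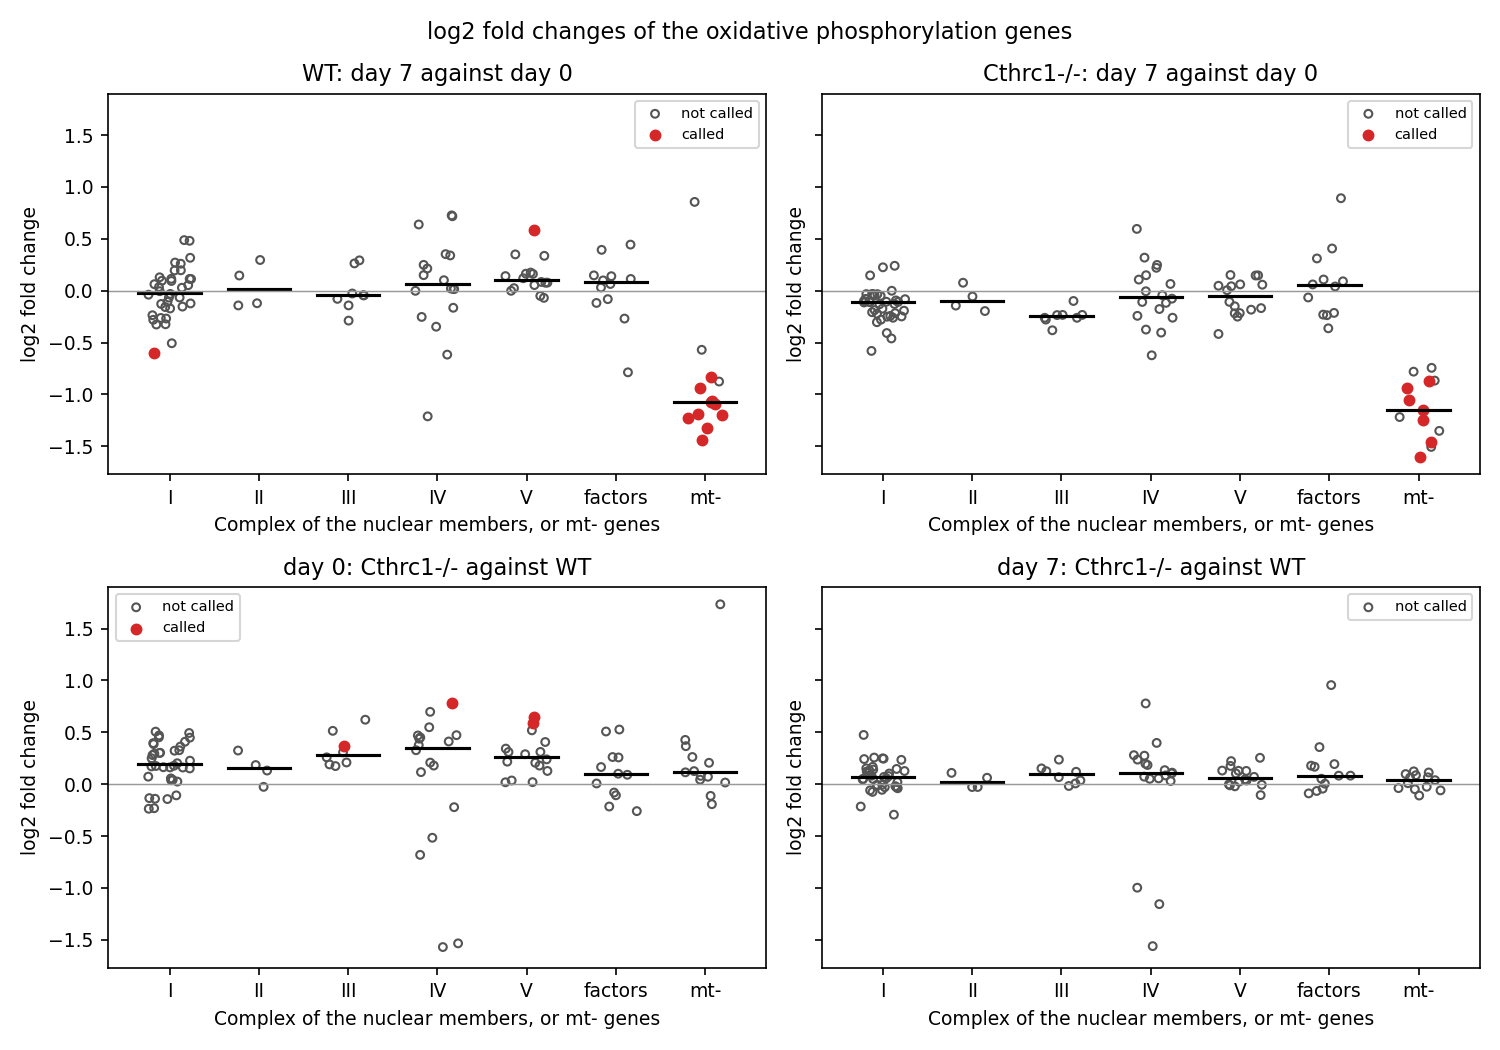
log2 fold change (edgeR, y axis) of each tested member, by complex for the 94 nuclear members and for the 13 mt- genes, in 4 comparisons. Red points were called at an adjusted p under 0.05 and lines are medians; the mt- genes lie apart in both day comparisons (medians -1.08 and -1.15) while nuclear medians stay between -0.25 and 0.10 there.

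Before wounding, on day 0, 4 of 94 nuclear genes were called higher in Cthrc1-/- than in WT dermis and 0 lower, where 3.51% of all tested genes were called higher and 2.26% lower. The share of members, 4 of 94, was close to that background. The median log2 fold change of the nuclear members was 0.21 against -0.05 over all genes, and 78 of the 94 values were positive. By complex the medians were 0.19 for complex I, 0.16 for complex II, 0.28 for complex III, 0.35 for complex IV and 0.26 for complex V, and every complex III and complex V member was positive.

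The largest change among the 4 called genes was that of Cox5a (chr9:57521274-57532426), a nuclear subunit of complex IV. It was at 28.2, 30.1 and 32.8 FPKM in WT and 49.0, 52.8 and 68.1 FPKM in Cthrc1-/-. The genotypes did not overlap, with Cthrc1-/- replicate 3 the highest, and the log2 fold change was 0.78 (SE 0.15, edgeR adjusted p = 0.0277). Atp5g3 (chr2:73908447-73911326), 1 of 3 genes for the proton-carrying c subunit of the ATP synthase, was at 64.1, 58.9 and 67.0 FPKM in WT and 118, 94.8 and 107 in Cthrc1-/-. It too had no overlap, at 0.65 (SE 0.14, edgeR adjusted p = 0.0367). Atp5mpl was at 40.6, 41.1 and 32.9 FPKM in WT and 68.0, 64.3 and 52.5 in Cthrc1-/-, again apart (log2 fold change 0.59, SE 0.15, edgeR adjusted p = 0.0477). Uqcrfs1 (chr13:30540308-30545362) was at 58.3, 56.6 and 62.8 FPKM in WT and 81.1, 79.4 and 86.4 in Cthrc1-/-, without overlap (0.36, SE 0.09, edgeR adjusted p = 0.0497). Several abundant subunits lay in the same direction without being called, among them Cox6a1 at 227, 237 and 221 FPKM in WT and 298, 310 and 397 in Cthrc1-/- (log2 fold change 0.44, edgeR adjusted p = 0.0900). Cox8a, a small complex IV subunit, was at 219 to 232 FPKM in WT and 313 to 376 in Cthrc1-/- (0.47, edgeR adjusted p = 0.0749). Uqcr10 was at 108 to 124 and 158 to 211 FPKM (0.51, edgeR adjusted p = 0.0724).

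These day 0 calls were few and moved with the fit. The same comparison gave 23 nuclear calls with DESeq2, 9 with scaling to total counts, 8 with scaling without the mitochondrial genes and 0 when only the 2 day 0 groups were fitted. Scaling to total counts moved the split of all calls from 503 higher and 324 lower to 541 and 212. With DESeq2 the calls over all genes were 1608 higher and 1179 lower. They were 588 and 289 with scaling without the mitochondrial genes, and 12 and 7 with only the 2 day 0 groups. Leaving out 1 library gave 0 calls without any day 0 WT library or Cthrc1-/- day 0 replicate 2, 1 call without Cthrc1-/- day 0 replicate 3, WT day 7 replicates 2 or 3, or Cthrc1-/- day 7 replicates 1 or 2, 11 without WT day 7 replicate 1 and 8 without Cthrc1-/- day 7 replicate 3. Over all genes the calls fell as well without WT day 0 replicates 1, 2 and 3. They were then 34 higher and 14 lower, 9 and 9, and 10 and 8. Without Cthrc1-/- day 0 replicate 2 they were 122 and 32, and without WT day 7 replicate 1 they rose to 910 and 664. The nuclear median stayed between 0.20 and 0.27 in all 12 leave-one-out fits. Other markers moved with this contrast: 10 of 11 hair follicle markers were called higher in Cthrc1-/- (7.06 to 11.1 against 230 to 12395 FPKM), 1 of 8 fibroblast markers lower (sums of 4921 to 6536 against 370 to 2496 FPKM), 1 of 8 sebocyte markers lower (386 to 488 against 206 to 573 FPKM) and 0 of 9 adipocyte markers, 6 of which had an unadjusted p under 0.05 (544 to 734 against 138 to 411 FPKM). On day 0 an unadjusted p under 0.05 was held by 4067 of all 14313 tested genes. In Cthrc1-/- replicate 1, where the hair follicle sum was 230 FPKM, Atp5g3 and Atp5mpl were at their highest of the 3 replicates, Cox5a was at its lowest and Uqcrfs1 lay between. The part of these cell types in the day 0 values of the nuclear members was not tested.

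Of the 13 mitochondrially encoded genes 0 were called between genotypes on day 0 by edgeR, limma or DESeq2, 1 had an unadjusted p under 0.05, and the median log2 fold change was 0.11. By edgeR 4067 of all 14313 tested genes had an unadjusted p under 0.05. Apart from mt-Atp6, at 1.73 (SE 0.78, edgeR adjusted p = 0.175), the values lay between -0.19 for mt-Nd3 and 0.43 for mt-Nd5. The counts of mt-Atp6 were split between libraries, as described below, and all day 0 WT libraries were low against its nuclear copy. With the copies added its value was 0.63 (SE 0.37, edgeR adjusted p = 0.287), from a sum that still holds the split.

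The promoters of nuclear respiratory genes are known to carry sites for NRF1, for the ETS factor GABPA (NRF2), for YY1 and for the estrogen-related receptor ESRRA, so the letters of these sites were searched in the RefSeq promoter windows (assembly GRCm38.p6, 250 bases before to 50 after the start). Windows matched 80 of the 98 nuclear members. The NRF1 core CGCATGCG, which reads the same on both strands, was found in 13.8% of the 80 genes and in 2.07% of all 27025 genes in that table. The YY1 core AAGATGGC was found in 13.8% against 3.19%, the GABPA core CCGGAAGT in 6.25% against 4.31%, and the ESRRA site TCAAGGTCA in 2.50% against 0.466%, on either strand. No motif contains another. The 27025 genes were not matched to the members by level, gene type or base composition of the promoter. Whether the shares are particular to respiratory genes was therefore not tested. The windows shown were picked from matches farther upstream. Matches close to the start or after it count in the percentages only. Shown here, motif in capitals and 5′ to 3′ on the gene's strand, are windows of members described above: the most abundant complex IV subunit Cox6a1 (chr5:115349092-115349139, minus strand, NRF1), the gene called lower in WT Ndufa11 (chr17:56717683-56717730, plus strand, NRF1), and the c subunit genes Atp5g2 (chr15:102671061-102671108, minus strand, NRF1) and Atp5g3 (chr2:73911350-73911398, minus strand, ESRRA on the opposite strand).
Cox6a1: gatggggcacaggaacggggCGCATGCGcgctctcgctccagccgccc
Ndufa11: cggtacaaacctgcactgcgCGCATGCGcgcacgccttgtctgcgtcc
Atp5g2: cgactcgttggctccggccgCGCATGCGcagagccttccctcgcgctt
Atp5g3: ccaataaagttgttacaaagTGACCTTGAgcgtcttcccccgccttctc
The matches are a description of letters and were not tied to the expression values: the 3 genes shown with the NRF1 core had log2 fold changes on day 0 of 0.44, -0.24 and 0.41 for Cox6a1, Ndufa11 and Atp5g2. None of the 3 was called in that comparison.

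On day 7 no member was called between the genotypes. By edgeR 0 of 94 nuclear and 0 of 13 mitochondrially encoded members were called, as by DESeq2 and limma, with 3 and 0 at an unadjusted p under 0.05. The background was nearly empty too, with 0.014% of genes called higher and 0.00699% lower, and 782 of 14313 at an unadjusted p under 0.05. The median log2 fold change was 0.08 for nuclear and 0.04 for mitochondrially encoded members. The smallest p values belonged to Cox7a1, Cox6a2 and Ndufa5. Ndufa5, an accessory subunit of complex I, was at 42.9, 33.5 and 34.4 FPKM in WT and 49.4, 55.5 and 58.9 in Cthrc1-/-, groups that did not overlap, at a log2 fold change of 0.47 (SE 0.18, edgeR adjusted p = 0.907).

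The interaction compared the day 7 to day 0 change of one genotype with that of the other (Cthrc1-/- minus WT). By edgeR and limma 0 nuclear and 0 mitochondrially encoded members were called, 5 and 0 had an unadjusted p under 0.05, and DESeq2 called 3 nuclear members lower. Of all genes 0.00699% were called in each direction by edgeR, and 2164 of 14313 had an unadjusted p under 0.05. DESeq2 called 209 of all genes higher and 472 lower. The median was -0.15 for nuclear and -0.14 for mitochondrially encoded members. The smallest p values were those of Cox5a (-0.73, SE 0.21, edgeR adjusted p = 0.203), Atp5mpl (-0.70, SE 0.21, edgeR adjusted p = 0.212) and Atp5f1, which encodes subunit b of the ATP synthase stalk (-0.33, SE 0.13, edgeR adjusted p = 0.275). In Cox5a the 4 groups stood at means of 30.3 FPKM in day 0 WT, 56.7 in day 0 Cthrc1-/-, 44.0 in day 7 WT and 48.4 in day 7 Cthrc1-/-, so day 0 WT was the lowest. For mt-Co1, mt-Nd1 and mt-Cytb the interaction was 0.07 (SE 0.33), 0.01 (SE 0.28) and -0.15 (SE 0.33), and was not called.

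Several subunits of complexes IV and V are encoded by more than 1 gene, with forms that differ between tissues. The heart and skeletal muscle isoforms Cox6a2, Cox7a1 and Cox8b had mean levels of 8.78, 5.05 and 9.74 FPKM, against 303, 89.5 and 286 FPKM for the widely expressed Cox6a1, Cox7a2 and Cox8a. Cox6a2 was at 10.3, 6.69 and 18.7 FPKM in day 0 WT, 5.52, 5.03 and 2.53 in day 0 Cthrc1-/-, 5.60, 29.2 and 7.13 in day 7 WT, and 4.63, 5.59 and 4.48 in day 7 Cthrc1-/-. Every WT value of Cox6a2 lay above every Cthrc1-/- value, by a margin as narrow as 5.60 against 5.59 FPKM on day 7. Cox8b was at 12.3, 14.4 and 20.04 FPKM in day 0 WT and 9.60, 4.64 and 2.27 in day 0 Cthrc1-/-, then 3.24, 27.6 and 4.57 in day 7 WT and 5.82, 8.54 and 3.87 in day 7 Cthrc1-/-. On day 7 the WT mean thus rested on replicate 2. Neither was called on day 0 (log2 fold changes -1.53 and -1.57, edgeR adjusted p = 0.143 and 0.219), nor on day 7 (-1.56 and -0.998, edgeR adjusted p = 0.907 and 0.974). Cox7a1 was at 4.73 to 7.47 FPKM in day 0 WT, 3.94 to 5.08 in day 0 Cthrc1-/-, 4.84 to 10.2 in day 7 WT and 2.45 to 3.83 in day 7 Cthrc1-/- (day 7 log2 fold change -1.16, edgeR adjusted p = 0.907).

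Skeletal muscle markers were highest in the same libraries as these isoforms. The 20 markers summed to 650, 469 and 1056 FPKM in day 0 WT, 413, 277 and 108 in day 0 Cthrc1-/-, 194, 1692 and 375 in day 7 WT and 399, 316 and 168 in day 7 Cthrc1-/-. WT day 7 replicate 2 was the highest library for the marker sum and for all 3 isoforms, and WT day 0 replicate 3 was the next in all 4. Of 18 tested muscle markers 0 were called in any comparison by edgeR, with 4 at an unadjusted p under 0.05 between genotypes on day 0 and 5 on day 7; 18 of 18 had a negative value on day 0 and 17 of 18 on day 7 for Cthrc1-/- against WT. Of all 14313 tested genes, 4067 on day 0 and 782 on day 7 had an unadjusted p under 0.05 between genotypes. Among the muscle markers Myh7, a slow fibre gene, was at 0 in 7 samples. Adipocyte markers summed to 544, 734 and 674 FPKM in day 0 WT and 411, 260 and 138 in day 0 Cthrc1-/-. On day 7 they summed to 93.5, 188 and 127 FPKM in WT and 194, 260 and 115 in Cthrc1-/-. Within day 7 Cthrc1-/- the replicates of Cox8b had the order of the adipocyte sums and not of the muscle sums. Within day 0 WT they had the order of neither. The part of muscle or adipocyte RNA in these values was not tested.

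**Figure D4:**
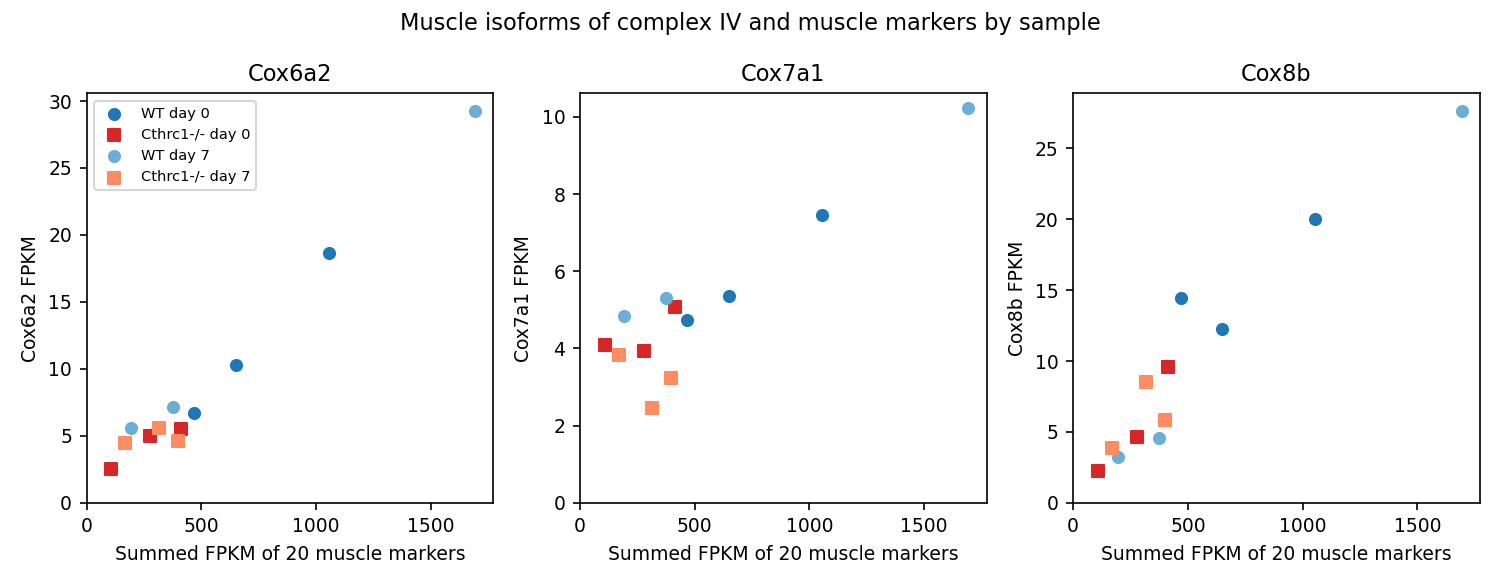
FPKM of the muscle isoforms Cox6a2, Cox7a1 and Cox8b (y axes) against the summed FPKM of 20 skeletal muscle markers (x axes), with 1 point per sample coloured by group. WT day 7 replicate 2, at a marker sum of 1692 FPKM, is the highest point in each panel.

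Another pair consists of Ndufa4, a complex IV subunit despite its name, and its homologue Ndufa4l2, known as a hypoxia-inducible gene. Ndufa4 was at 65.5, 38.8 and 42.6 FPKM in day 0 WT and 93.7, 84.1 and 96.0 in day 7 WT. Ndufa4l2 was at 197, 236 and 211 FPKM in day 0 WT and 113, 96.5 and 105 in day 7 WT. So Ndufa4l2 stood above Ndufa4 in each of these 6 libraries, by a wide margin on day 0 and a small one on day 7. The samples did not overlap between days for either gene, but neither was called: the log2 fold changes were 0.72 (SE 0.30, edgeR adjusted p = 0.131) and -1.21 (SE 0.49, edgeR adjusted p = 0.117). In Cthrc1-/- the spread of Ndufa4l2 was wider, at 242, 132 and 46.8 FPKM on day 0 and 183, 249 and 138 on day 7, and Ndufa4 was at 96.2, 58.2 and 59.9 and then 69.8, 93.7 and 137. In Cthrc1-/- day 0 replicate 3 the order was turned, with Ndufa4 above Ndufa4l2.

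The subunit 4 pair was ordered more clearly. Cox4i1, the ubiquitous form, was at 123 to 244 FPKM in day 0 WT, 245 to 290 in day 0 Cthrc1-/-, 139 to 190 in day 7 WT and 210 to 228 in day 7 Cthrc1-/-. Cox4i2, the form known from lung and from oxygen-sensing cells, was at 5.46 to 6.21, 5.27 to 9.38, 9.91 to 11.8 and 9.12 to 19.1 FPKM in the same order of groups. Cox4i2 on day 7 lay above day 0 without overlap in WT, and was not called (log2 fold change 0.73, edgeR adjusted p = 0.135). The 3 genes for the ATP synthase c subunit stood at mean levels of 17.2 FPKM for Atp5g1, 108 for Atp5g2 and 87.9 for Atp5g3. Atp5g1 and Atp5g2 are 2 of 9 nuclear members for which transcripts of near-identical sequence held 10% or more of the member's counts, so their levels are uncertain, while Atp5g3 had no such copy. The 9 include the duplicate annotation of Atp5o, which itself had 0 counts.

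The values of mt-Atp6 need to be read library by library. Its nuclear copy Gm10925 is identical in sequence, and the count of mt-Atp6 was 0.227 to 0.265 times that of Gm10925 in 6 libraries (the 3 of day 0 WT, Cthrc1-/- day 0 replicate 1, WT day 7 replicate 1 and Cthrc1-/- day 7 replicate 3) and 0.970 to 1.15 times in the other 6. There were no values in between. The level of mt-Atp6 was accordingly 2743, 2311 and 2737 FPKM in day 0 WT, 2786, 12894 and 12652 in day 0 Cthrc1-/-, 1479, 8117 and 6990 in day 7 WT and 7267, 9357 and 1347 in day 7 Cthrc1-/-. With the counts of the copies added to all 7 genes concerned, an alternative chosen after seeing the data, mt-Atp6 had a log2 fold change of -0.35 (SE 0.37, edgeR adjusted p = 0.554) in WT where it had been 0.86, and of -0.84 (SE 0.37, edgeR adjusted p = 0.269) in Cthrc1-/-. In that fit 10 mitochondrially encoded genes were called lower in WT and 6 in Cthrc1-/-. Gm10925 held 262739 to 591709 counts in the 6 low libraries and 326599 to 546521 in the other 6. The sum for mt-Atp6 thus still holds the split, and -0.35 and -0.84 are not values freed of it. All day 0 WT libraries were low, whereas each other group held both kinds, so the split cannot be told apart from comparisons with day 0 WT.

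**Figure D5:**
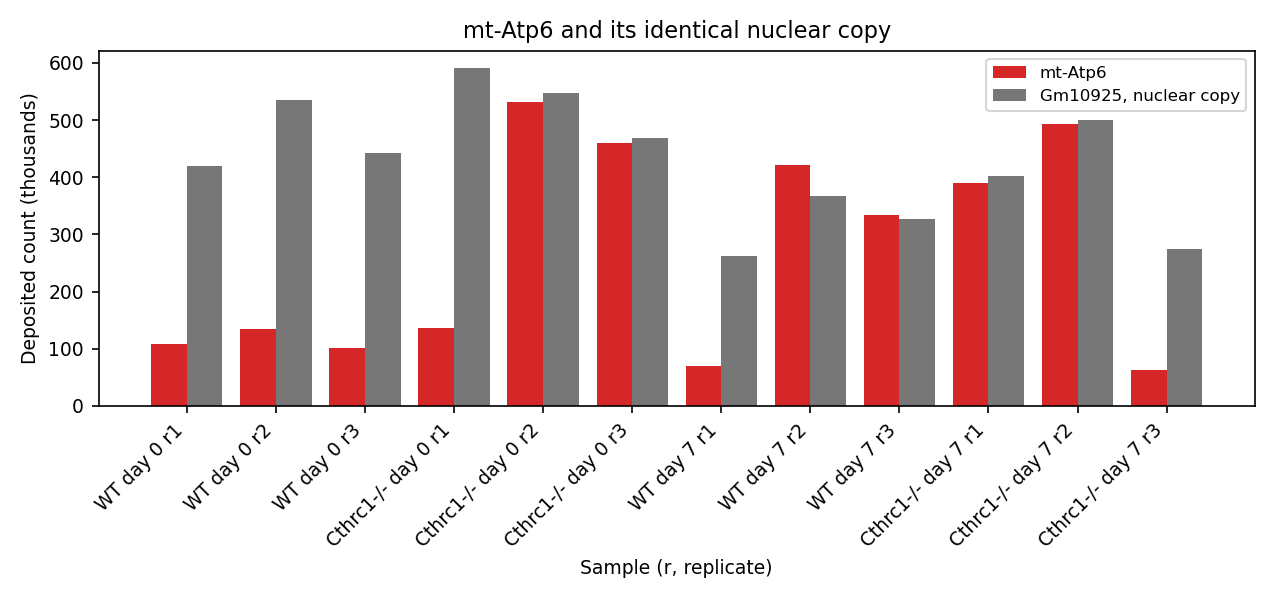
Deposited counts (y axis) of mt-Atp6 (red) and of its sequence-identical nuclear copy Gm10925 (grey) in the 12 samples (r, replicate). In 6 samples mt-Atp6 is at 0.227 to 0.265 times its copy and in the other 6 at 0.970 to 1.15 times.

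Of the other mitochondrial genes listed for comparison, few passed the test. Over all tested genes, edgeR called 6.04% higher and 7.11% lower between the days in WT. The shares were 0.859% and 0.601% in Cthrc1-/-, and 3.51% and 2.26% between genotypes on day 0. An unadjusted p under 0.05 between the days was held by 4659 of 14313 genes in WT and 2596 in Cthrc1-/-. Among 39 tested respiratory chain genes outside the rule (such as cytochrome c and assembly factors) 0 were called between days in either genotype by edgeR, with 9 at an unadjusted p under 0.05 in each genotype, and the median was 0.001 for WT against -0.11 for Cthrc1-/-. On day 0 the list had 1 call, Slc25a5, which encodes an ADP/ATP carrier of the inner membrane, at 179, 160 and 157 FPKM in WT and 219, 248 and 321 in Cthrc1-/-. These did not overlap (log2 fold change 0.55, SE 0.13, edgeR adjusted p = 0.0407), and the call held under 10 of 21 alternatives. Among 16 genes of the tricarboxylic acid cycle and pyruvate dehydrogenase 1 was called, Pdha1, the alpha subunit of pyruvate dehydrogenase, lower on day 7 in WT (log2 fold change -0.45, SE 0.11, edgeR adjusted p = 0.0264), a call that held under 13 of 21 alternatives.

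The list nearest to the mitochondrial transcripts, 23 genes for transcription, RNA handling and replication of mitochondrial DNA, had 3 calls in WT between the days. Of these, 1 was higher and 2 were lower, where 6.04% of all tested genes were called higher and 7.11% lower. The share of 3 in 23 was close to that background. Polg2, the accessory subunit of the mitochondrial DNA polymerase, was at 5.23, 5.48 and 7.40 FPKM on day 0 and 1.34, 1.87 and 2.00 on day 7. It fell by 1.99 without overlap (SE 0.29, edgeR adjusted p = 0.00543), a call that held under all 21 alternatives, and on day 0 it was lower in Cthrc1-/-, at 3.86, 2.54 and 2.00 FPKM (log2 fold change -1.20, SE 0.28, edgeR adjusted p = 0.0419), a call that held under 9 of 21. The end of Polg2 overlaps the neighbouring gene Milr1 on the other strand, and whether reads were shared was not tested. Fastkd1, of a family of mitochondrial RNA-binding proteins, fell by 0.71 (edgeR adjusted p = 0.0365), and Supv3l1, a mitochondrial RNA helicase, rose by 0.59 (edgeR adjusted p = 0.0464); these calls held under 7 and 8 of 21 alternatives. Tfam and Polrmt, the packaging and transcription factor and the RNA polymerase of mitochondrial DNA, were at 4.55 to 5.02 and 3.21 to 3.58 FPKM in day 0 WT and 4.50 to 6.50 and 3.58 to 5.26 in day 7 WT. Both overlapped between the days, and neither was called. The 23 genes had a median of -0.007 in WT and -0.03 in Cthrc1-/-, where 0 were called by edgeR and 1 had an unadjusted p under 0.05. Of 12 nuclear regulators such as Nrf1, Gabpa and Esrra, 9 were tested and 0 were called in any comparison by edgeR and 0 had an unadjusted p under 0.05, with medians of -0.17 in WT and -0.12 in Cthrc1-/- between the days.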

How the data were processed

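RNA sequencing of mouse dermis gave 1 deposited table with an FPKM and a count for each gene and sample. Per the submitters' processing notes, the tools included cutadapt 1.9, HISAT2 2.0.4, UMI-tools, StringTie 1.3.4d, DESeq2 and edgeR, with genome build GRCm38; how the authors counted reads shared between copies is not given in the sources used here. FPKM values were computed by the authors and scaled to total counts; an FPKM of 0.0001 at a count of 0 was taken as 0. In the deposited counts the value 4 was over-represented: it occurred 3.16 to 4.05 times as often as its neighbours 3 and 5 on average. Symbols and positions came from GENCODE M21, which named 55141 of 55401 IDs; 13 genes with a matching symbol that were not protein-coding were left out. A floor of 3 counts was 0.0390 to 0.0621 CPM, for counting error only.

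The deposited counts of the 14313 genes with a mean of at least 1 FPKM were tested in R 4.3.3 by edgeR (4.0.16, quasi-likelihood, two-sided, TMM scaling, 4 group means over 12 samples, no covariate), with Benjamini-Hochberg adjustment over all of them and a threshold of 0.05. The standard error is the absolute log2 fold change divided by the square root of F. Alternatives were DESeq2 1.42.0, limma 3.58.1, other scalings and filters, a replicate block and leaving out each library. The procedure was tested on simulated data. Near-identical transcripts were found with BLAST 2.17.0 (same strand, at least 99% identity over 100 bases). The members, lists and rule were chosen with earlier results of these data known. Named genes were all mitochondrially encoded genes, the most abundant subunit of each complex, the isoform pairs, and the 4 largest called rises and falls per comparison or, where none was called, the 3 smallest p-values.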

Additional observations from a re-analysis of the deposited data

How the results depend on the processing

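Of the 23 gene calls, none reversed under the alternatives. The mitochondrial fall kept its direction under each alternative, and its count did not keep its size. In WT the number of mitochondrially encoded genes called lay between 3 and 11 with single libraries left out, and in Cthrc1-/- between 0 and 11; in Cthrc1-/- it was 12 with DESeq2, 11 with limma on log2(FPKM + 1) and on log2(FPKM + 0.1), 3 with no filter on low values and 0 with only the 2 groups compared. The number of nuclear members called in WT was 7 with DESeq2, 6 with total-count scaling, 1 with scaling without mitochondrially encoded genes, 0 with no filter, 4 with limma at either pseudocount and 1 with the replicate block, and 0 to 6 with single libraries left out. In Cthrc1-/- it was 6 with DESeq2, and the interaction gave 3 there. On day 0 the nuclear count was 23 with DESeq2, 9 with total-count scaling, 8 with scaling without mitochondrially encoded genes, 1 with no filter and 0 with only the 2 groups compared, and 0 to 11 with single libraries left out. With DESeq2 the calls over all tested genes rose too, in WT from 864 higher and 1017 lower to 1853 and 1698. In Cthrc1-/- they went from 123 and 86 to 749 and 660, and on day 0 from 503 and 324 to 1608 and 1179. With single libraries left out the calls over all genes moved too, as given above. The causes of these changes in counts were not tested. The log2 ratio of the genomes in Cthrc1-/- differed by -1.42 between the days with the median log2 CPM in place of the sum; with single libraries left out its differences ran from -1.28 to -0.68 in Cthrc1-/-, from -1.18 to -0.95 in WT, from -0.17 to -0.04 on day 0, from -0.35 to 0.25 on day 7 and from -0.24 to 0.35 for the interaction. The log2 fold change of mt-Atp6 in WT was -0.35 with the copies added, where it was 0.86 without. The sum with the copy still holds the split between libraries, so -0.35 is not a corrected value. With the replicate block, 10 and 5 mitochondrially encoded genes were called in WT and Cthrc1-/-, and 3 nuclear members on day 0. Same-numbered samples correlated at -0.23 to 0.43 in their deviations from the group means, so the numbers were not taken as pairs. The interaction was not fitted with only the 2 groups compared, since it needs all 4. The 3 replicates per group limit all calls; depth does not limit the mitochondrial genes, the lowest of which, mt-Nd4l, had at least 11007 counts in every sample.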
